A study of Mus musculus with 4 samples.

Results

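The tubulins and the proteins that fold, nucleate and bind microtubules were examined in RNA sequencing of mouse embryonic stem cells mutant for Chd2 on both alleles, set against wild-type cells. Chd2 encodes a chromodomain helicase that remodels chromatin with ATP, and the study asked how its loss affects chromatin and developmental gene expression in these cells. The members were taken by symbol: the numbered tubulin genes, the gamma-tubulin complex genes Tubgcp2 to Tubgcp6, the tubulin cofactors Tbca to Tbce, the end-binding genes Mapre1 to Mapre3, and Map1a, Map1b, Map1s, Map4, Map6, Map7 and Mapt. They made up 40 of the 23309 genes listed. The names Mtap1b and Mtap4, also in the rule, matched no row, and those genes are listed as Map1b and Map4.

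The Chd2 mut/mut group and the wild-type group had 2 libraries each, marked lot 1 and lot 2. Both were embryonic stem cells of strain 129/Ola at passages 10 to 20, cultured on gelatin-coated plates with fetal bovine serum and recombinant LIF (leukemia inhibitory factor), a cytokine that keeps them undifferentiated. Total RNA was used, with 1 microgram for each library. The labels call the mutant both Chd2KO and Chd2 mut/mut, and do not describe the allele, how the lines are related, or whether the lots were separate cultures. The q-values may therefore rest on technical spread only, and on single lines.

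The table analysed holds 1 FPKM value per gene and genotype (fragments per kilobase of transcript and per sequencing depth). These values are the authors' own over the libraries of a genotype and have no standard deviation. Significance below is that of the authors' deposited table, in which a gene is called at a q-value under 0.05. Summed FPKM over all genes was 809413 in mutant cells and 806390 in wild-type cells. Chd2 itself was at 5.69 FPKM in mutant cells and 10.2 FPKM in wild-type cells, with a call of lower in the authors' deposited table (q-value 0.0103). The pluripotency genes expected of embryonic stem cells were abundant, with Pou5f1 at 1071 FPKM in mutant and 1032 FPKM in wild-type cells. Of 10 such marker genes, 8 were higher in the mutant and 2 lower. The widest relative gaps were those of Nanog, at 150 FPKM in mutant and 114 FPKM in wild-type cells, and Sox2, at 222 and 178 FPKM, in the same order. None of the 10 genes of that marker list was called, against 0.718% of all genes with a q-value under 1.

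Microtubules are hollow polymers of alpha- and beta-tubulin dimers. New dimers are folded by the cytosolic chaperonin and assembled with the help of tubulin cofactors, and polymers are seeded by gamma-tubulin in a ring complex. End-binding proteins track growing ends, and structural microtubule-associated proteins (MAPs) stabilise the lattice. Mammals have several genes each for alpha- and beta-tubulin, called isotypes, which differ mainly in an acidic tail at the end of the protein. In dividing cells such as embryonic stem cells the polymers form the mitotic spindle.

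Of the 40 members, 1 was called, the alpha-tubulin gene Tuba3a, which was lower in the mutant. Of all 11276 genes with a q-value under 1, the authors' deposited table calls 0.718%, and 0.461% as lower, and 1 call among the 33 members with such a q-value is too few to set the family apart from that background. These 33 are the same members that averaged 1 FPKM or more over the genotypes, and the other 7 had a q-value of 1. On the scale of log2(FPKM + 1), mutant minus wild type, 26 of the 33 lay below 0 and 7 above. Among all 10766 genes with such an average, 50.4% lay below 0 and 49.6% above. The median difference was -0.08 for the 33 members and -0.0012 for all these genes, and 84.8% of the 33 members lay within 0.2 of 0, against 78.9% of all these genes.

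The share below 0 differed with the level of the genes. Of all genes, 68.7% of the 1949 averaging 50 FPKM or more lay below 0, with a median difference of -0.06. All 9 members at that level, which are Tuba1a, Tuba1b, Tuba1c, Tuba4a, Tubb2b, Tubb4b, Tubb5, Tbca and Tbcb, lay below 0, with a median of -0.12. Of the 24 members averaging at least 1 and under 50 FPKM, 17 lay below 0 and 7 above (70.8% below, median -0.04), against 46.3% below 0 and a median of 0.01 for the 8817 genes in that range. The members thus lay below 0 more often than all genes in both ranges, a difference that 1 value per genotype leaves without a test. Neither range is matched in level. In the upper range the median wild-type level was 165 FPKM for the 9 members and 106.5 FPKM for all genes. In the lower range it was 11.7 FPKM for the 24 members and 7.58 FPKM for all genes. Among the 9, Tuba1a, Tuba1b and Tuba1c also share sequence, so their values may not be independent. None of the 9 abundant members was called, and the authors' deposited table gives them q-values of 0.860 or more. Summed over the 40 members the level was 2983 FPKM in mutant cells and 3258 FPKM in wild-type cells, 8.44% lower in the mutant. In bulk RNA, fewer cells of a type and less RNA per cell cannot be told apart.

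**Figure D1:**
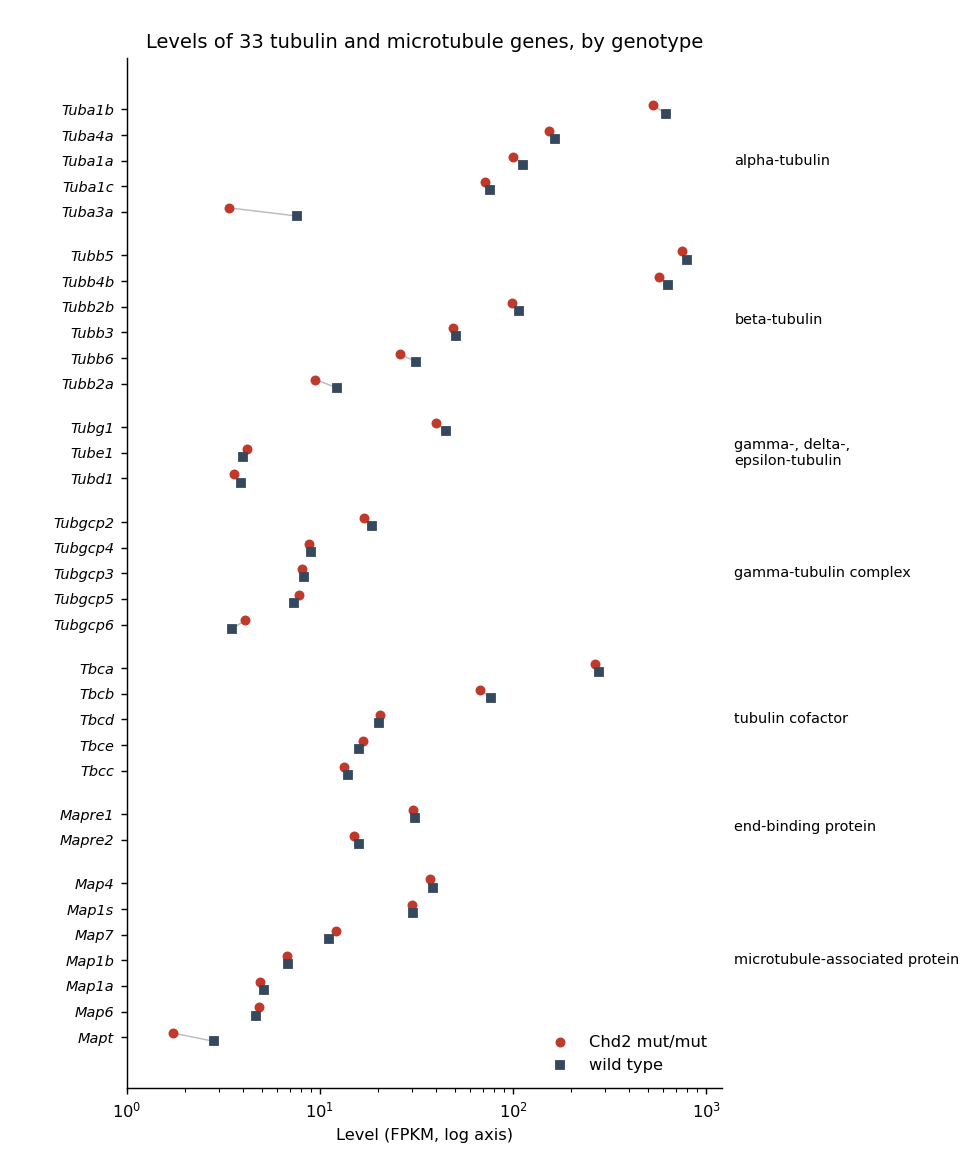
Level in FPKM (log axis) of the 33 members averaging 1 FPKM or more, grouped by role. Circles stand for Chd2 mut/mut and squares, just beneath, for wild type, each being 1 value by the authors over 2 libraries. Tuba3a, at 3.37 FPKM in the mutant and 7.62 FPKM in wild type, has the widest gap, followed by Mapt at 1.74 and 2.82 FPKM, in the same order.

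Tuba3a encodes an alpha-tubulin whose known main site of expression in the mouse is the testis. It was listed at 3.37 FPKM in mutant cells and 7.62 FPKM in wild-type cells. The mutant level was thus 44.3% of wild type, or 2.26-fold lower. The authors' deposited table gives a log2 fold change of -1.18. Its q-value there, 0.0103, is the lowest that occurs and is shared by 55 genes. By the size of its fold change Tuba3a was number 16 of the 52 genes called lower. It was 1 of the 24 among them that were lower by at least 2-fold.

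Near-identical copies matter for this value, because a fragment that matches several genes can be assigned to any of them. The closest paralog, Tuba3b, lies on the same chromosome, 6. In the GENCODE M21 transcripts (build GRCm38) the coding sequence of Tuba3b was 96.97% identical to that of Tuba3a over 1353 bases, with 41 bases different, and the 2 encoded proteins of 450 residues were identical. The other alpha-tubulin genes had a coding identity with Tuba3a between 81.0% (Tuba8) and 83.9% (Tuba1b), and a protein identity between 90.9% (Tuba8) and 97.6% (Tuba1a). The end of the coding sequence, where tubulin isotypes are known to differ, is shown by the last 60 coding bases of both genes, in lower case throughout because no base differs.
Tuba3a: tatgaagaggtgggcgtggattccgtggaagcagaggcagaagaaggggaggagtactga
Tuba3b: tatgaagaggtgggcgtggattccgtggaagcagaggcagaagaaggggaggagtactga
The stretches of Tuba3a and Tuba3b have the same letters.

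Over the whole Tuba3a transcript of 1509 bases (for each gene the longest coding transcript was used), 32.4% of all windows of 50 bases also occur in Tuba3b, and 64.7% occur in no other gene of the annotation. None of the 1460 windows occurs in the more abundant alpha-tubulin genes Tuba1a, Tuba1b, Tuba1c or Tuba4a, and 4 occur in Tuba8. Tuba3b itself was listed at 0.0514 FPKM in mutant cells and 0.0267 FPKM in wild-type cells, so little signal was assigned to that copy in either genotype. The noncoding gene 4930417O13Rik lies on the opposite strand over the Tuba3a locus and overlaps 75 of its 1509 exonic bases. It was listed at 0 in both genotypes. The library kit named in the labels is not described there as strand-specific, so sense and antisense reads may not be told apart.

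Tuba3a and Tuba3b encode the same protein but were listed at very different levels, and their promoters are printed for that reason. The sequences are from RefSeq, build GRCm38.p6, and run from 250 bases before the annotated start to 50 bases after it. The Tuba3a promoter is chr6:125286032-125286331 on the minus strand, and the Tuba3b promoter is chr6:145615713-145616012 on the plus strand. Capitals mark the letters CCAAT, searched on both strands (the reverse complement is ATTGG). The search was chosen after the sequences were seen.
Tuba3a: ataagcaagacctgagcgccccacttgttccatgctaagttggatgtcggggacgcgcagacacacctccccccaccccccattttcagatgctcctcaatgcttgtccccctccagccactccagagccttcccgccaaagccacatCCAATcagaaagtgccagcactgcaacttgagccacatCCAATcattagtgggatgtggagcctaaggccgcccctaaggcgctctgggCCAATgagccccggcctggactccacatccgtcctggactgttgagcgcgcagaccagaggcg
Tuba3b: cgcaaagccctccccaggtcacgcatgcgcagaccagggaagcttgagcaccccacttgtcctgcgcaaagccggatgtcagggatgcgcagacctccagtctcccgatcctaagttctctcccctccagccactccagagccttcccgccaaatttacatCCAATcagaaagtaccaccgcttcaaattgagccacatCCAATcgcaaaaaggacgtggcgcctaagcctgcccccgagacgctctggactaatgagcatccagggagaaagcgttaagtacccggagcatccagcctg
Aligned end to end, the promoters had 188 identical bases in 332 alignment columns (56.6%). Tuba3a holds 3 of the CCAAT letters and Tuba3b holds 2, while 37.4% of the 32851 promoters in the RefSeq table hold at least 1, 11.7% at least 2 and 3.37% at least 3. The CpG dinucleotide occurs 12 times in the Tuba3a promoter and 16 times in that of Tuba3b, against a median of 7 over all promoters. Neither holds TATAAA on either strand, letters found in 13.6% of all promoters.

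The protein-coding genes next to Tuba3a in the GRCm38 annotation were low and none was called. Not all of them had a q-value under 1. Of all genes with such a q-value 0.718% were called, so the absence of a call does not set so few genes apart. Of 3 on each side that are listed, Ltbr had the highest level, 2.49 FPKM in mutant cells and 2.20 FPKM in wild-type cells. The nearest on the other side, Cd27, was listed at 0 in both genotypes.

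Set against its paralogs, Tuba3a was the only alpha-tubulin gene called. Tuba1b, the main alpha-tubulin of dividing cells, was at 531 FPKM in mutant cells and 616 FPKM in wild-type cells. Tuba4a was at 154 FPKM in mutant cells and 165 FPKM in wild-type cells. Per length, Tuba1b was 157 times as abundant as Tuba3a in mutant cells and 80.8 times in wild-type cells. Tuba1a, the isotype prominent in developing neurons, was at 100.4 FPKM in mutant cells and 112 FPKM in wild-type cells. Tuba1c was at 71.2 FPKM in mutant cells and 75.6 FPKM in wild-type cells. These 4 genes had mutant levels between 86.3% and 94.2% of wild type, on the same side as Tuba3a, with q-values between 0.860 and 0.998 in the authors' deposited table. No test of the difference between Tuba3a and these genes can be had from 1 value per genotype.

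Within the alpha-tubulin pool, Tuba3a was a minor part in both genotypes. It gave 0.392% of the summed alpha-tubulin FPKM in mutant cells and 0.781% in wild-type cells. Tuba1b gave 61.7% in mutant and 63.1% in wild-type cells, and Tuba4a 17.9% and 16.9%, in the same order. The sum of the 7 alpha-tubulin genes was 860.1 FPKM in mutant cells and 976 FPKM in wild-type cells, 11.9% lower in the mutant, and without Tuba3a it was 11.5% lower. Tuba8 was at 0.0285 FPKM in mutant cells and 0.0300 FPKM in wild-type cells, a level that with Tuba3b marks the low end of the family. Among the abundant genes, 52.0% of the 50-base windows of Tuba1a, 64.6% of those of Tuba1b and 59.8% of those of Tuba1c also occur in other members, mostly in each other. Over all genes of the annotation, the shares that occur elsewhere were 75.5% for Tuba1a, 83.1% for Tuba1b and 61.0% for Tuba1c. The gene Gm49450, which has no FPKM value here, overlaps 26.2% of the exonic bases of Tuba1a and 22.7% of those of Tuba1b on the same strand. Of the Tuba4a windows 47.7% also occur in Stk16, which overlaps it on the opposite strand. Fragments could thus be split among those of these genes that are listed, which Gm49450 is not.

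**Figure D2:**
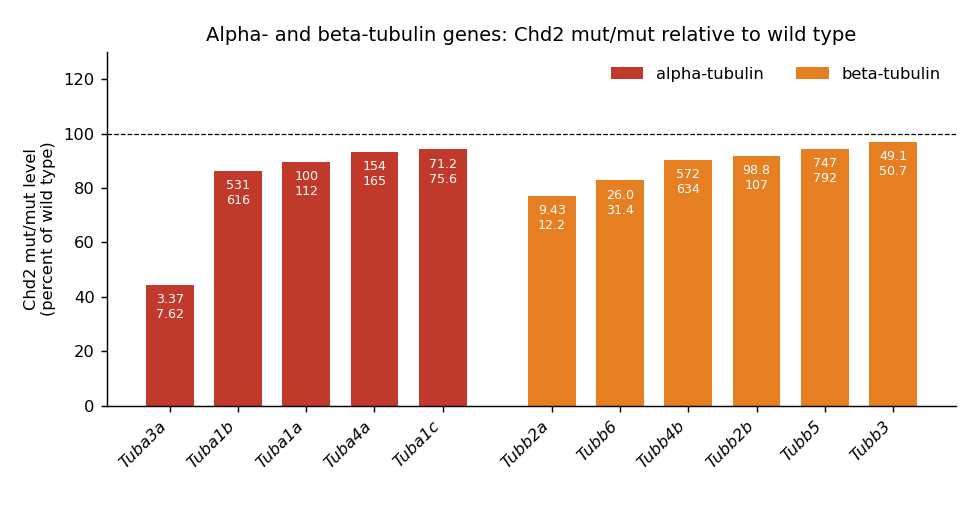
Chd2 mut/mut level as a percent of wild type for the alpha- and beta-tubulin genes averaging 1 FPKM or more; the dashed line marks equal levels. The numbers in each bar are FPKM, with the mutant above wild type. The 11 bars lie below the line, Tuba3a at 44.3% and the others between 77.1% (Tubb2a) and 96.8% (Tubb3).

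None of the 8 beta-tubulin genes was called, and the 6 averaging 1 FPKM or more lay below 0 with a median difference of -0.13 on the log2(FPKM + 1) scale. Tubb5, the most abundant tubulin gene, was at 747 FPKM in mutant cells and 792 FPKM in wild-type cells. Tubb4b, which is expressed in most tissues, was at 572 FPKM in mutant cells and 634 FPKM in wild-type cells, and 43.6% of its windows also occur in the processed pseudogene Tubb4b-ps1. Together Tubb5 and Tubb4b gave 87.8% of the summed beta-tubulin FPKM in mutant cells and 87.6% in wild-type cells.

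Tubb2b was at 98.8 FPKM in mutant cells and 107 FPKM in wild-type cells. Its neighbour on chromosome 13, Tubb2a, was at 9.43 FPKM in mutant cells and 12.2 FPKM in wild-type cells, and its q-value of 0.615 in the authors' deposited table was the third smallest among the members. Of the Tubb2a windows of 50 bases, 45.6% also occur in Tubb2b, so fragments could be split between them. Tubb2b was 10.5 times as abundant as Tubb2a in mutant cells and 8.79 times in wild-type cells. The processed pseudogene Tubb2a-ps2 was at 0.301 FPKM in mutant cells and 0.258 FPKM in wild-type cells, with 32.6% of its windows in other members.

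Tubb6 was at 26.0 FPKM in mutant cells and 31.4 FPKM in wild-type cells (q-value 0.747 in the authors' deposited table). Tubb3, used as a marker of neurons, was at 49.1 FPKM in mutant cells and 50.7 FPKM in wild-type cells. Tubb4a, known from the brain, was at 0.217 FPKM in mutant cells and 0.245 FPKM in wild-type cells. Tubb1, the isotype of platelets and their precursors, was listed at 0 in both genotypes. The summed beta-tubulin level was 1502 FPKM in mutant cells and 1628 FPKM in wild-type cells, 7.71% lower in the mutant. The ratio of summed alpha- to summed beta-tubulin FPKM was 0.572 in mutant cells and 0.600 in wild-type cells.

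Of the tubulins that nucleate or sit at centrioles, Tubg1, the main gamma-tubulin, was at 40.0 FPKM in mutant cells and 45.1 FPKM in wild-type cells. Its relative Tubg2 was at 0.278 FPKM in mutant cells and 0.0530 FPKM in wild-type cells. That ratio of 5.25 is the largest among the members, but both levels are far below 1 FPKM and the q-value is 1 in the authors' deposited table. Of the Tubg2 windows, 14.3% also occur in Tubg1. Delta-tubulin (Tubd1) was at 3.57 FPKM in mutant and 3.92 FPKM in wild-type cells, and epsilon-tubulin (Tube1) at 4.19 FPKM in mutant and 3.99 FPKM in wild-type cells. Both are linked to the triplet microtubules of centrioles. None of these 4 genes was called.

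The 5 gamma-tubulin complex genes had no call and a median difference of -0.03. Tubgcp2 and Tubgcp3 encode the core subunits that bind gamma-tubulin in small complexes. Tubgcp2 was at 16.9 FPKM in mutant cells and 18.5 FPKM in wild-type cells, and Tubgcp3 at 8.09 FPKM in mutant and 8.32 FPKM in wild-type cells. Tubgcp4, Tubgcp5 and Tubgcp6 encode subunits found only in the large ring. Tubgcp4 was at 8.75 FPKM in mutant cells and 8.97 FPKM in wild-type cells, though 47.4% of its windows also occur in Trp53bp1, which overlaps it on the opposite strand. Tubgcp5 was at 7.83 FPKM in mutant cells and 7.38 FPKM in wild-type cells. Tubgcp6 had the largest positive difference among the 33 members, 0.17 on the log2(FPKM + 1) scale, at 4.10 FPKM in mutant cells and 3.51 FPKM in wild-type cells (q-value 0.922 in the authors' deposited table). Both core genes and Tubgcp4 thus lay below 0, and Tubgcp5 and Tubgcp6 above it.

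The tubulin cofactors, which carry and join newly folded alpha- and beta-tubulin, had no call among 5 genes and a median difference of -0.07. Tbca, a beta-tubulin carrier, was the most abundant at 266 FPKM in mutant cells and 280.2 FPKM in wild-type cells, with 25.5% of its windows in other genes. Tbcb, which binds alpha-tubulin, was at 67.0 FPKM in mutant cells and 77.1 FPKM in wild-type cells, and 20.2% of its windows also occur in the overlapping opposite-strand gene Polr2i. Tbcc, Tbcd and Tbce form the assembly that releases the dimer. Tbcc was at 13.4 FPKM in mutant and 14.0 FPKM in wild-type cells, Tbcd at 20.4 FPKM in mutant and 20.1 FPKM in wild-type cells, and Tbce at 16.7 FPKM in mutant and 15.995 FPKM in wild-type cells. Tbca, Tbcb and Tbcc lay below 0, and Tbcd and Tbce slightly above it.

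Among proteins that bind the finished polymer, the end-binding gene Mapre1 was at 30.3 FPKM in mutant cells and 31.1 FPKM in wild-type cells. Mapre2 was at 15.0 FPKM in mutant cells and 15.9 FPKM in wild-type cells. Mapre3, known mainly from brain and muscle, was at 0.375 FPKM in mutant cells and 0.244 FPKM in wild-type cells, with a q-value of 1 in the authors' deposited table.

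The gene for tau, Mapt, a MAP of neuronal axons, came nearest to a call without reaching it. It was at 1.74 FPKM in mutant cells and 2.82 FPKM in wild-type cells, 61.6% of wild type. In the authors' deposited table its log2 fold change was -0.70 and its q-value 0.0531. That is the smallest q-value without a call, shared by 4 genes, and the largest q-value with a call is 0.0487. The other 6 MAP genes had a median difference of -0.02. Map4, the MAP of many non-neuronal cells, was at 37.3 FPKM in mutant cells and 38.4 FPKM in wild-type cells, and Map1s at 30.0 FPKM in mutant and 30.4 FPKM in wild-type cells. Map7, which recruits the motor kinesin-1, was at 12.1 FPKM in mutant cells and 11.2 FPKM in wild-type cells. Map1b was at 6.73 FPKM in mutant and 6.82 FPKM in wild-type cells, Map1a at 4.88 FPKM in mutant and 5.14 FPKM in wild-type cells, and Map6 at 4.85 FPKM in mutant and 4.66 FPKM in wild-type cells. These 6 genes had mutant levels between 94.9% and 108% of wild type.

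**Figure D3:**
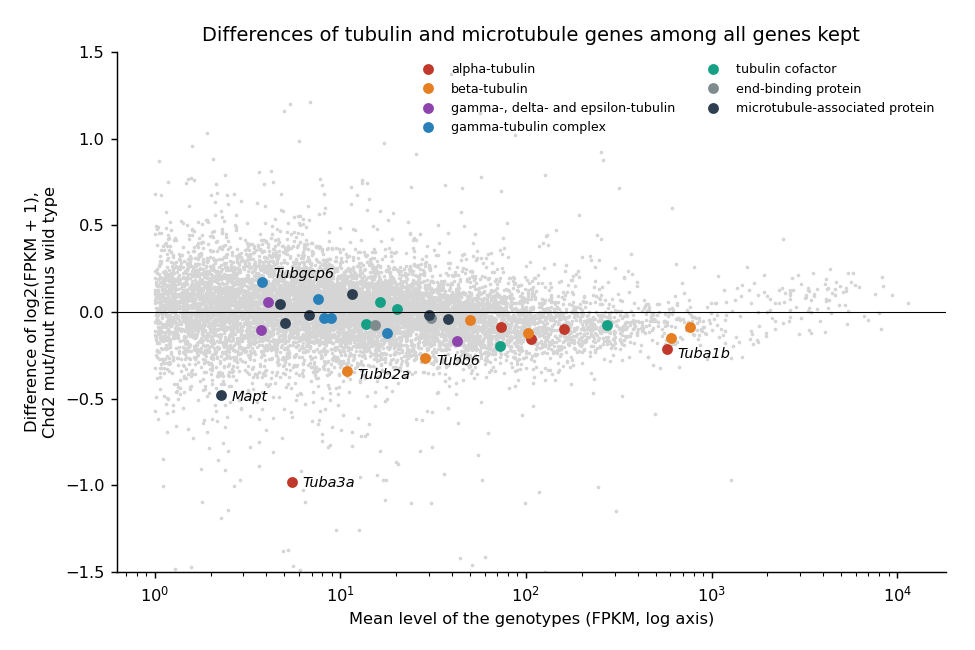
Difference of log2(FPKM + 1), Chd2 mut/mut minus wild type, against the mean level of the genotypes in FPKM (log axis), with all 10766 genes averaging 1 FPKM or more in grey and the 33 members coloured by role. The vertical axis ends at a difference of 1.5, which leaves out 67 grey genes. Tuba3a lies at -0.98 and Mapt at -0.48, the other members between -0.34 and 0.17.

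Neuron and germ cell markers were looked at because Tubb3, Mapt and Tuba3a are known from those cells. Of 15 neuron markers, which include Tubb3 itself, 7 averaged 1 FPKM or more, and their summed level over all 15 was 185 FPKM in mutant cells and 213 FPKM in wild-type cells. Of these 7, 4 lay above 0 and 3 below, with a median difference of 0.01. The 1 neuron marker called was Stmn2, at 39.8 FPKM in mutant cells and 71.2 FPKM in wild-type cells, and the other 14 summed to 145.7 FPKM in mutant and 142.2 FPKM in wild-type cells. The lower sum of the list in the mutant thus rests on Stmn2. Of all genes with a q-value under 1, 0.461% were called lower, and 1 call does not set so short a list apart. Nefl was at 38.3 FPKM in mutant and 33.8 FPKM in wild-type cells, Gap43 at 3.67 FPKM in mutant and 2.63 FPKM in wild-type cells, and Elavl3 at 2.36 FPKM in mutant and 2.11 FPKM in wild-type cells. Ina was at 47.8 FPKM in mutant and 48.9 FPKM in wild-type cells, and Map2 at 1.87 FPKM in mutant and 1.84 FPKM in wild-type cells. The 8 markers averaging under 1 FPKM, among them Dcx, Syt1 and Snap25, reached at most 0.867 FPKM in mutant and 0.914 FPKM in wild-type cells. The part of such cells in the level of Mapt was not tested.

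Of 12 germ cell and testis markers none was called, but only 3 averaged 1 FPKM or more. Among all genes with a q-value under 1, 0.718% were called, so the absence of a call does not set this list apart. In both genotypes 6 of the 12 were listed at 0, among them the protamine genes Prm1 and Prm2. The summed level of the 12 was 18.2 FPKM in mutant cells and 15.3 FPKM in wild-type cells. Sycp3 was at 9.0 FPKM in mutant and 7.26 FPKM in wild-type cells, Ddx4 at 6.65 FPKM in mutant and 5.30 FPKM in wild-type cells, and Ldhc at 0.980 FPKM in mutant and 1.144 FPKM in wild-type cells. The part of such cells in the level of Tuba3a was not tested. Of the markers of ciliated cells (8 of 10 listed) and of fibroblasts (10 listed), only 3 and 2 averaged 1 FPKM or more. None was called, which for so few genes does not set them apart from that background. The summed levels of the whole lists were 9.53 FPKM in both genotypes for ciliated cells, and 14.6 FPKM in mutant and 15.6 FPKM in wild-type cells for fibroblasts. Of the ciliated cell markers averaging 1 FPKM or more, Foxj1 was at 1.19 FPKM in mutant and 0.876 FPKM in wild-type cells, Tekt1 at 2.37 FPKM in mutant and 2.58 FPKM in wild-type cells, and Rsph1 at 4.96 FPKM in mutant and 5.16 FPKM in wild-type cells. Of the fibroblast markers, Thy1 was at 11.5 FPKM in mutant and 14.2 FPKM in wild-type cells and Tagln at 2.97 FPKM in mutant and 1.15 FPKM in wild-type cells. Without Thy1 the other 9 fibroblast markers summed to 3.13 FPKM in mutant and 1.33 FPKM in wild-type cells, so the direction of the whole sum rests on Thy1. Most of the sum without Thy1 came from Tagln in both genotypes.

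Other genes that act on tubulin were taken from 5 lists, whose members overlap no symbol of the rule. Of all genes with a q-value under 1, 0.718% were called. In lists this short, no call or 1 call does not set a list apart from that share. The 19 genes of the chaperonin, prefoldin and their helpers, which fold tubulin, had no call. Of these, 13 lay below 0 and 6 above, with a median of -0.06. The largest differences were those of Txndc9 at 17.0 FPKM in mutant and 14.1 FPKM in wild-type cells, Tbcel at 6.40 and 5.19 FPKM, Pfdn1 at 115 and 135 FPKM, and Pfdn4 at 73.6 and 83.7 FPKM, in the same order.

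The 26 tubulin-modifying enzymes, which add or remove tyrosine, glutamate, glycine or acetyl groups, had no call. Only 15 of them averaged 1 FPKM or more, and most of the others had no q-value under 1. Of these 15, 10 lay below 0 and 5 above, with a median of -0.02. Tpgs1, a subunit of a polyglutamylase, was at 51.1 FPKM in mutant and 44.6 FPKM in wild-type cells, and Tpgs2 at 4.57 and 5.25 FPKM, in the same order. The deacetylase gene Sirt2 was at 11.6 FPKM in mutant and 13.02 FPKM in wild-type cells, and the polyglutamylase gene Ttll1 at 7.01 FPKM in mutant and 7.84 FPKM in wild-type cells.

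The 18 genes for gamma-tubulin recruitment, including the augmin complex, had no call and a median of -0.02. The largest differences were those of Haus1, at 85.6 FPKM in mutant and 66.0 FPKM in wild-type cells, Plk1 at 82.9 FPKM in mutant and 100.1 FPKM in wild-type cells, Haus5 at 11.8 and 14.3 FPKM, and Haus7 at 18.0 and 21.3 FPKM, in the same order. Of these augmin genes, Haus1 thus lay above 0, while Haus5 and Haus7 lay below. The augmin genes not named here also lay on both sides of 0.

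Calls came from the 2 remaining lists, with 1 each. Among 34 plus-end and lattice proteins, Mid1, a ubiquitin ligase that binds microtubules, rose 1.74-fold to 161 FPKM in mutant cells, against 92.8 FPKM in wild-type cells. The list had a median of 0.06, with 20 genes above 0 and 10 below. The uncalled Mtap7d3, a relative of Map7, was at 2.24 FPKM in mutant and 1.38 FPKM in wild-type cells, and Slain1, which promotes growth at plus ends, at 4.34 FPKM in mutant and 3.20 FPKM in wild-type cells. Tacc3, a spindle protein, was at 48.2 FPKM in mutant and 56.0 FPKM in wild-type cells. Among 18 destabilising and severing proteins, Stmn2, which sequesters tubulin dimers, fell 1.79-fold. Its relative Stmn3 was at 4.22 FPKM in mutant and 5.65 FPKM in wild-type cells, and the depolymerising kinesin gene Kif2c at 41.2 FPKM in mutant and 46.3 FPKM in wild-type cells. The list had a median of -0.04. The q-values of Mid1 and Stmn2 in the authors' deposited table were both 0.0103, and 0.257% of all genes tested were called higher.

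**Figure D4:**
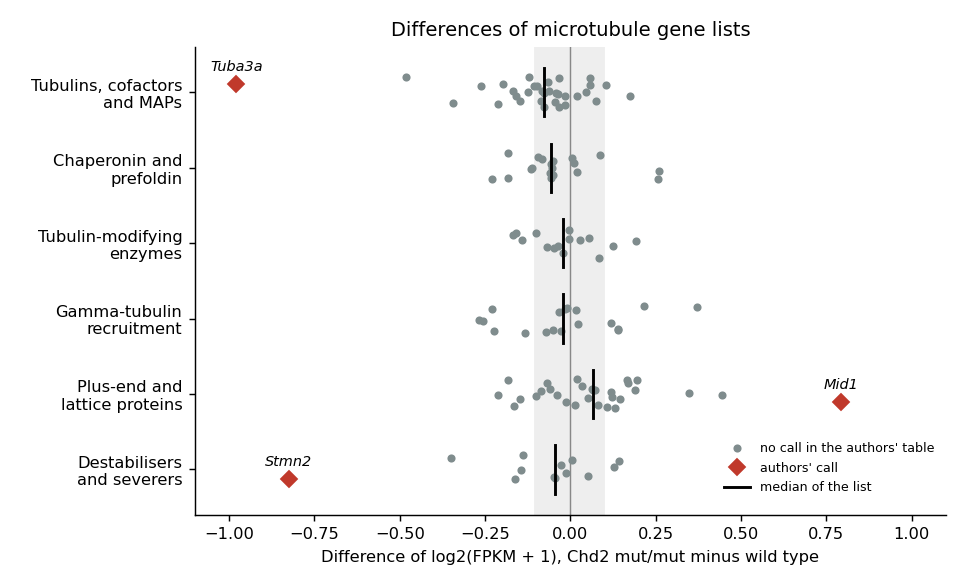
Difference of log2(FPKM + 1), Chd2 mut/mut minus wild type, for genes averaging 1 FPKM or more in the members and in 5 lists of other genes that act on tubulin. Points are genes, diamonds are genes with the authors' call, and black bars are list medians. The grey band spans the middle 50% of all genes, from -0.10 to 0.0997, and the grey line their median. The only called genes shown are Tuba3a, Mid1 and Stmn2.

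CpG dinucleotides were counted in the promoters of the other members as well. RefSeq gave a promoter for 32 of the 40 members. Over the 27 promoters of the 26 members averaging 1 FPKM or more, the median was 21 CpG dinucleotides in 300 bases, with a range from 5 to 55. Over the 7 promoters of the 6 lower members the median was 12, with a range from 3 to 19. Tuba3a had 12. In the first set only Tuba1c, with 7, and a second promoter of Map4, with 5, had fewer. These counts describe the reference sequence and have no test.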

How the data were processed

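RNA libraries were made with the NEBNext Ultra RNA kit, per the labels. Per the submitters' processing notes, the tools were bcl2fastq 2.17.1.14, TopHat2 2.1.0 and Cufflinks, on mouse build mm9. Not given in the sources used here are the annotation, the Cufflinks version, the read length and the test for the q-values. The authors deposited 1 FPKM value per gene and genotype, a log2 fold change (mutant over wild type, no pseudocount), and a q-value with a call. Depth is unknown. The lowest FPKM values step with single fragments (46 of 993 genes under 0.06 FPKM in both genotypes share a log2 ratio between -0.08 and -0.06), which gives no absolute depth, and an FPKM of 0 can be a failed estimate.

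Differences were computed as log2(FPKM + 1), mutant minus wild type, for genes averaging 1 FPKM or more (Python 3.11.15, pandas 2.3.3), which understates changes of low genes. Folds are plain ratios. A limma fit needs values per library and was not run. The functions were tested on simulated data. Promoters, transcripts and overlaps come from RefSeq and GENCODE M21 (GRCm38), aligned with Biopython 1.88, matched by symbol. Lists were matched through older symbols. Members and lists were chosen with earlier results of these data known. Named genes are members averaging 1 FPKM or more, the alpha-tubulins, called genes, and up to 4 genes per list with the largest difference. Other names (Pou5f1, the other low members, the marker genes at 0 or near it, Ina, Map2, neighbours and overlapping genes) were chosen after their values were seen. Some named items are not reported here.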

Additional observations from a re-analysis of the deposited data

How the results depend on the processing

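No paired analysis was possible because the table holds 1 value per genotype, and for the same reason no lot could be left out. Tuba3a was lower in the mutant under each scale tried, from -1.18 without a pseudocount, an alternative added after seeing the data, to -0.98 with the median of all genes set to 0. Its call remained the 1 call of the members without a filter on low values, with an average of at least 5 FPKM, and with a log2 fold change of at least 1 required. These settings only recount the authors' deposited calls, and Tuba3a passes each of them, so no other outcome was possible. The number of members below 0 was 23 of 33 after quantile normalization, 28 of 40 without a filter and 24 of 28 with an average of at least 5 FPKM. A pseudocount cannot change the side of 0 on which a gene lies, so the count stayed 26 of 33 with 0.1. Setting the median of all genes, -0.0012, to 0 also left 26 of 33, a shift smaller than the difference of any of these members. The share of all genes below 0 was 47.7% after quantile normalization, 36.8% without a filter and 53.9% with an average of at least 5 FPKM. Without a filter the median difference of all genes was 0. Many of them thus lay exactly at 0, which lowers that share and widens its gap to the members. With an average of at least 50 FPKM, added after seeing the data, 9 of 9 members lay below 0, against 68.7% of all genes. The median difference of the members, -0.08 as reported, was -0.044 without a filter and -0.12 with an average of at least 50 FPKM, where the median of all genes was -0.06. Different genes enter these medians. After quantile normalization it was -0.05, and without Tuba3a and Mapt -0.07. Without values per library, how far these medians vary between libraries of a genotype is unknown.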
